A study of Mus musculus with 6 samples.

Results

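Transforming growth factor beta (TGF-beta) signalling was followed at the transcript level through 9 genes: the ligands Tgfb1, Tgfb2 and Tgfb3, the receptors Tgfbr1 and Tgfbr2, the signal transducer Smad3, the feedback inhibitors Smad7 and Skil, and the secreted target Tgfbi. They were chosen by name, and all 9 were found among the 23494 genes of the deposited table. All 9 also passed the filter on low values (a mean of 1 TPM or more across the 6 libraries, TPM being a transcript's length-corrected share of its library), which left 12865 genes for testing. The libraries came from 6 wild-type female C57BL/6 mice carrying B16F10 melanoma, a transplantable mouse tumour line placed under the skin. The vehicle group (n = 3) received phosphate-buffered saline, although the labels also give its libraries names with IgG, which they do not explain. The rMANF group (n = 3) received daily intraperitoneal injections of recombinant mesencephalic astrocyte-derived neurotrophic factor at 2 µg/kg, begun once tumours averaged about 60 mm3, in cohorts of 8 mice. No untreated or tumour-free heart was among the samples, so the tumour is common to both groups. The sources used here do not state the ages of the mice. The study's title concerns MANF in myocarditis under immune checkpoint inhibitors, and the comparison made here asks how rMANF altered transcripts in tissue labelled heart.

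TGF-beta is secreted as a latent complex, held by its own propeptide and by latent TGF-beta binding proteins in the matrix, and is released by integrins and proteases. The active ligand brings together the type II receptor (Tgfbr2) and the type I receptor (Tgfbr1), which phosphorylates SMAD2 and SMAD3. These join SMAD4 in the nucleus and induce matrix genes together with inhibitors of the pathway itself, among them Smad7, which blocks the receptor, and Skil (SnoN), which represses SMAD target genes. In the heart the pathway is best known for driving fibroblast activation and scar formation, and in immune tissue for restraining T cells and macrophages.

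The tissue label was not borne out by its defining markers. Of 12 cardiomyocyte markers 9 had rows, and they summed to 7.47 to 31.6 TPM in the vehicle libraries and 7.90 to 11.0 TPM in the rMANF libraries, with Actc1, Pln, Nppa and Mybpc3 under 1 TPM in every library. The 14 macrophage markers summed to 3379 to 3803 TPM under vehicle and 1958 to 2682 TPM with rMANF. Of these 14, 9 were lower in every rMANF library than in any vehicle library (9.02% of all tested genes). The rest, Cd14 and C1qa among them, overlapped between groups. The 10 endothelial markers summed to 109 to 144 and 143 to 174 TPM, and 9 of 10 fibroblast markers with rows to 525 to 754 and 641 to 752 TPM. Most of the fibroblast sum was Gsn (372 to 623 TPM over the 6 libraries), while the matrix markers Dcn (24.3 to 41.5 and 10.3 to 18.7 TPM), Lum (7.56 to 10.1 and 2.30 to 5.92 TPM) and Mfap5 (up to 19.7 and up to 7.41 TPM) were lower in every rMANF library than in any vehicle library; of the 8 tested, 1 was higher without overlap. The 12 skeletal muscle markers ranged from 25.7 to 1059 TPM with vehicle, the highest being replicate 2, and from 7.13 to 18.2 TPM with rMANF. In these bulk libraries fewer cells of a type and less RNA per cell cannot be told apart.

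Promoter sequence was available for 6 of the 9 genes in the RefSeq table (GRCm38.p6). Shown are the 250 bases before the start of the 3 of them whose expression separated the groups in the values given below. Capitals mark CAGAC or its complement GTCTG, the short box bound by SMAD3.
Tgfb1, chr7:25686752-25687001, plus strand: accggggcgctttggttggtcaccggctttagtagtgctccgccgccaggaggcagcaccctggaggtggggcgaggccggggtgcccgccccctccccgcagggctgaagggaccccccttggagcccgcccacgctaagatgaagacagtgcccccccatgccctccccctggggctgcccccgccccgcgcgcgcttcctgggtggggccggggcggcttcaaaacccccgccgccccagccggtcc
Smad3, chr9:63757995-63758244, minus strand: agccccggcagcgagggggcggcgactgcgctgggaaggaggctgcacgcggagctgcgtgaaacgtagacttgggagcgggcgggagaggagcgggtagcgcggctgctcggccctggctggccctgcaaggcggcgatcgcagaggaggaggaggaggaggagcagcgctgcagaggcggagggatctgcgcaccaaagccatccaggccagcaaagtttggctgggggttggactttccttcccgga
Tgfbr2, chr9:116175364-116175613, minus strand: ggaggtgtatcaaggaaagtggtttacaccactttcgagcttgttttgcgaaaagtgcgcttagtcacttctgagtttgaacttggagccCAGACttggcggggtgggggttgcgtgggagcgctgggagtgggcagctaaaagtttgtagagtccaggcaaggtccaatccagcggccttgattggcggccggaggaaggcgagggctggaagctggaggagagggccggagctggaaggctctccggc
The Tgfb1 and Smad3 windows held no CAGAC on either strand, and the Tgfbr2 window held 1. The Tgfb1 window is 75.2% G and C, the Smad3 window 69.2% and the Tgfbr2 window 58.4%. Of the 7 windows of the 6 genes, 4 held CAGAC, against 42.2% of the 32817 windows of all genes. The palindrome GTCTAGAC, the paired form of the box, was in 0 of the 7 windows and in 0.168% of all windows. The matches describe these letters only.

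The levels of the 9 genes spanned a wide range. Ordered by mean TPM over the 6 libraries, they ran from Tgfbi (187), Tgfb1 (134), Smad7 (21.1), Smad3 (20.5), Tgfb3 (14.5), Tgfbr1 (14.1), Skil (10.3) and Tgfbr2 (10.3) to Tgfb2 (1.65). Tgfbi exceeded 94.8% of tested genes in mean level, Tgfb1 92.6% and Tgfb2 7.18%. The ranges of Smad7 and Smad3 overlapped, as did those of Tgfb3 and Tgfbr1 and those of Skil and Tgfbr2. The other neighbours in this order did not overlap.

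**Figure D1:**
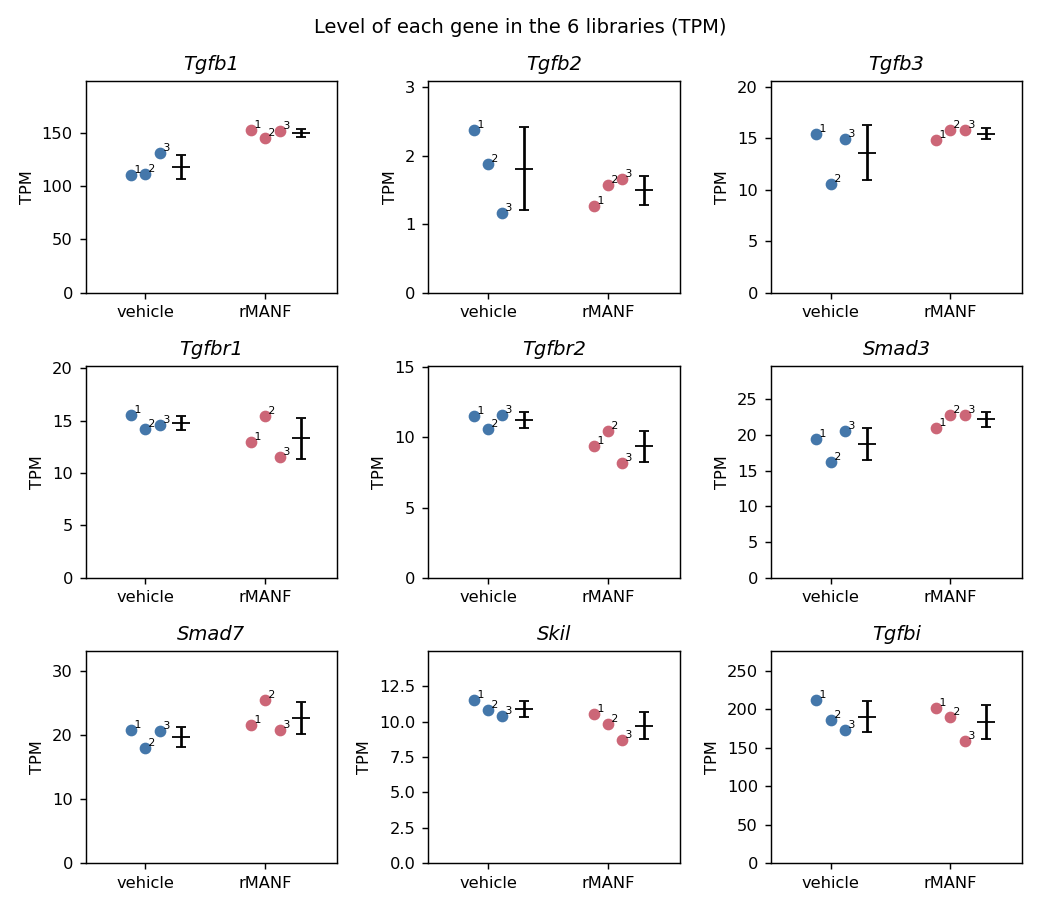
Level in TPM (y axis, from 0, a separate scale per gene) of each of the 9 genes in the 3 vehicle (blue) and 3 rMANF (red) libraries, with replicate numbers beside the points and bars for the mean and SD of each group. The rMANF points of Tgfb1 lie at 146 to 153 TPM, all above the vehicle points at 111 to 131 TPM, and those of Tgfbr2 lie below the vehicle points.

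In the rMANF libraries Tgfb1 averaged 150.0 TPM against 118 TPM in the vehicle libraries, Tgfbr2 lay lower, and Smad3 and Smad7 lay slightly higher. None of the 9 differences passed limma's test over all tested genes at a Benjamini-Hochberg adjusted p of 0.05, a threshold that 0% of all tested genes passed (0 of 12865, against 2642, or 20.5%, at an unadjusted p under 0.05). At that unadjusted level 1 of the 9 genes passed as higher, Tgfb1 (13.9% of all tested genes), and 0 passed as lower (6.63%). An adjusted p under 0.10 was reached by 0 of the 9 and by 2.73% of all tested genes. The groups did not overlap for 4 of the 9, where the share over all tested genes was 28.0%. Every rMANF library exceeded every vehicle library for 3 of these, Tgfb1, Smad3 and Smad7 (18.9% of all tested genes), and fell short of every vehicle library for 1, Tgfbr2 (9.02%). The median log2 difference of the 9 genes, rMANF minus vehicle on log2(TPM + 1), was −0.05, against 0.04 over all tested genes, with 4 genes higher and 5 lower.

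The ligands were dominated by Tgfb1, the form made by most immune and stromal cells. Tgfb1 (chromosome 7, 25687002 to 25705077, GRCm38) measured 111, 112 and 131 TPM in vehicle replicates 1, 2 and 3 and 153, 146 and 152 TPM in rMANF replicates 1, 2 and 3. Each rMANF library thus lay above the highest vehicle library, replicate 3, and the rMANF libraries lay close together. The means were 118 ± 11.4 and 150.0 ± 3.94 TPM (SD, n = 3 each), a log2 difference of 0.35 ± 0.09 (SE; 95% interval 0.14 to 0.56; limma, adjusted p = 0.113). By unadjusted p Tgfb1 ranked 524 of the 12865 genes.

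Tgfb3 (chromosome 12, 86056745 to 86079041), a ligand known from palate fusion and wound healing, measured 15.4, 10.5 and 14.9 TPM under vehicle and 14.8, 15.8 and 15.8 TPM with rMANF. The groups overlapped, and vehicle replicate 2 alone was low. This gave a log2 difference of 0.19 ± 0.15 (limma, adjusted p = 0.504), and it was 0.03 without vehicle replicate 2. Skeletal muscle markers were highest in that library (1059 TPM), and a link to Tgfb3 was not tested. Exons of the annotated noncoding genes Gm37804 and Gm48008 lie on the opposite strand of Tgfb3, and the library kit does not mark strand. Both were listed at no more than 1.63 TPM in any library.

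Tgfb2 (chromosome 1, 186622792 to 186705989), the ligand of the embryonic heart valves and outflow tract, was close to the filter on low values. It measured 2.38, 1.88 and 1.17 TPM under vehicle and 1.26, 1.57 and 1.67 TPM with rMANF, and the groups overlapped. The log2 difference was −0.15 ± 0.22 (95% interval −0.65 to 0.35; limma, adjusted p = 0.747), so a change in either direction of the size seen for Tgfb1 lies within the interval. Without vehicle replicate 1 it was −0.01, without vehicle replicate 3 −0.32 and without rMANF replicate 1 −0.08. Tgfb2 shares 124 exon bases with Gm29491 on the opposite strand, a gene not analysed here.

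Summed over the ligands, TPM was 128, 124 and 147 under vehicle and 169, 163 and 169 with rMANF. Tgfb1 supplied 88.4 ± 2.02% of that sum under vehicle and 89.8 ± 0.601% with rMANF (SD, n = 3 each), so the makeup of the ligand pool differed by less than the spread between vehicle libraries.

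Without rescaling, the receptors lay lower with rMANF, Tgfbr2 without overlap and Tgfbr1 with it. Under median-of-ratios scaling and quantile normalization Tgfbr1 also lay below without overlap, where 14.3% and 12.4% of all tested genes did so. Tgfbr2 (chromosome 9, 116084293 to 116175360), the ligand-binding kinase, measured 11.6, 10.6 and 11.6 TPM in vehicle replicates 1, 2 and 3 and 9.41, 10.5 and 8.19 TPM in rMANF replicates 1, 2 and 3. The gap between the groups was narrow, with rMANF replicate 2 just under vehicle replicate 2. The log2 difference was −0.25 ± 0.12 (95% interval −0.52 to 0.02; limma, adjusted p = 0.274), and without rMANF replicate 3, the lowest library, it was −0.17.

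Tgfbr1 (chromosome 4, 47353222 to 47414931), the kinase that phosphorylates SMAD2 and SMAD3, measured 15.6, 14.2 and 14.6 TPM under vehicle and 13.0, 15.4 and 11.6 TPM with rMANF. Here rMANF replicate 2 fell among the vehicle libraries. Its log2 difference stood at −0.15 ± 0.12 (limma, adjusted p = 0.534), with −0.25 without rMANF replicate 2, −0.06 without rMANF replicate 3 and −0.05 once the GC trend of each library was taken out. The sum of the macrophage markers, lower in all 3 rMANF libraries, was also lowest in rMANF replicate 3 (1958 TPM), the library with the least Tgfbr1 and Tgfbr2. The other libraries did not keep this order. The markers summed to 2682 TPM in rMANF replicate 1 and 2498 TPM in rMANF replicate 2, where Tgfbr1 and Tgfbr2 were higher. Under vehicle they summed to 3379, 3803 and 3755 TPM, and replicate 1, with the lowest sum, had the most Tgfbr1. The part of macrophages in the receptor values was not tested.

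Ratios of genes within a library do not depend on how libraries are scaled to each other, and several were computed after the values had been seen. Such ratios are not free of the GC trend, as transcript GC content is 56.2% for Tgfb1, 51.1% for Tgfbr2 and 43.5% for Tgfbr1. Tgfb1 stood at 9.57, 10.5 and 11.3 times the Tgfbr2 level in the vehicle libraries and at 16.3, 13.9 and 18.5 times in the rMANF libraries. Against Tgfbr1 it stood at 7.11, 7.89 and 8.97 times under vehicle and 11.8, 9.42 and 13.1 times with rMANF. Neither ratio overlapped between groups. For the ratio to Tgfbr2 this adds nothing new, because Tgfb1 was higher and Tgfbr2 lower in every rMANF library than in any vehicle library. The share of such ratios over all pairs of genes was not computed. The Tgfbr1 to Tgfbr2 ratio was 1.31 ± 0.0474 under vehicle and 1.42 ± 0.0501 with rMANF (SD, n = 3 each), also without overlap, while the fitted differences of these receptor genes lay within 1 SE of each other. No test was run on these ratios, because they were picked for their values.

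Among the intracellular genes, Smad3 and its inhibitor Smad7 lay higher with rMANF and the repressor Skil lay lower, each without passing the test. With the GC trend taken out Smad3 stood at 0.20, and Smad7 and Skil at 0.02 and −0.05. Smad3 (chromosome 9, 63646767 to 63757994) measured 19.5, 16.3 and 20.5 TPM under vehicle and 21.0, 22.8 and 22.8 TPM with rMANF. The groups did not overlap, with vehicle replicate 3 just under rMANF replicate 1. On the log2 scale the difference was 0.24 ± 0.11 (95% interval −0.01 to 0.49; limma, adjusted p = 0.266) and was 0.14 without vehicle replicate 2.

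Smad7 (chromosome 18, 75367529 to 75395935) measured 20.7, 17.9 and 20.5 TPM under vehicle and 21.6, 25.4 and 20.7 TPM with rMANF. Its groups were separated only in the second decimal, by vehicle replicate 1 at 20.71 and rMANF replicate 3 at 20.74 TPM. The log2 difference was 0.19 ± 0.11 (limma, adjusted p = 0.387), and was 0.10 without rMANF replicate 2 and 0.12 without vehicle replicate 2. The separation ended under quantile normalization and after rescaling without mitochondrially encoded and haemoglobin genes. The Smad3 to Smad7 ratio was 0.950 ± 0.0452 under vehicle and 0.990 ± 0.102 with rMANF, overlapping between groups.

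Skil (chromosome 3, 31095058 to 31122577) measured 11.5, 10.8 and 10.4 TPM under vehicle and 10.6, 9.86 and 8.68 TPM with rMANF, with rMANF replicate 1 among the vehicle libraries. Skil differed by −0.16 ± 0.11 on the log2 scale (limma, adjusted p = 0.453), and by −0.09 without rMANF replicate 3. Smad7 stood at 1.80, 1.65 and 1.97 times Skil under vehicle and at 2.04, 2.58 and 2.39 times with rMANF, so that the ratio of these inhibitors, both SMAD-induced in other settings, did not overlap. The ratio was picked for its values, and the genes lie at opposite ends of transcript GC content (58.6 and 41.6%), with differences near 0 once the GC trend is taken out.

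Tgfbi (chromosome 13, 56609523 to 56639562), a secreted matrix protein named for its induction by TGF-beta, measured 212, 186 and 173 TPM under vehicle and 202, 190 and 159 TPM with rMANF. The groups overlapped almost fully. Tgfbi differed by −0.05 ± 0.12 on the log2 scale (95% interval −0.32 to 0.22; limma, adjusted p = 0.845), and its sign turned with library weights (0.06) and without vehicle replicate 1 (0.03) or rMANF replicate 3 (0.05). Leaving out another library gave −0.12 (vehicle replicate 3 or rMANF replicate 1), −0.08 (rMANF replicate 2) or −0.06 (vehicle replicate 2).

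**Figure D2:**
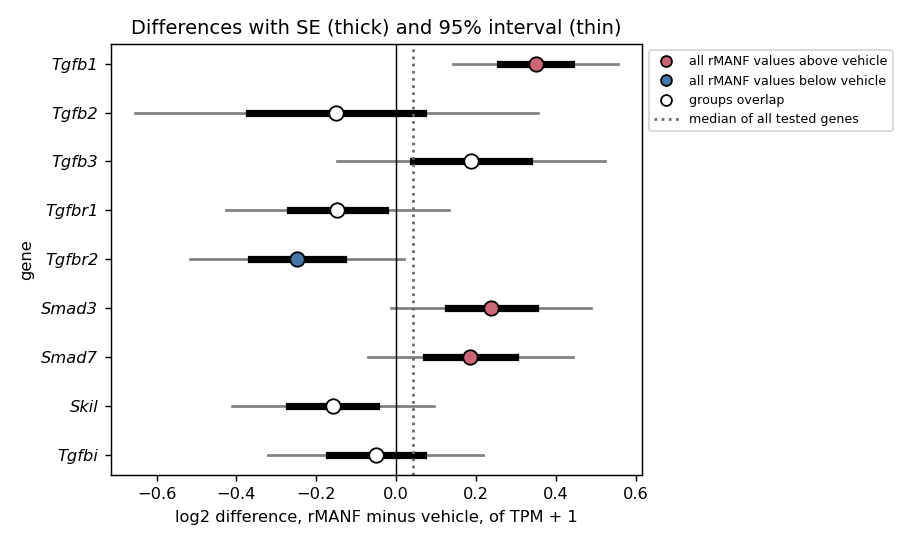
Log2 difference of TPM + 1, rMANF minus vehicle (x axis), for the 9 genes (y axis), with limma's SE as thick and 95% interval as thin lines, red and blue marking groups that do not overlap and a dotted line at the median of all tested genes. The interval of Tgfb1 (0.14 to 0.56) is the one that leaves out 0.

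Differences between the groups moved with transcript GC content across the transcriptome. Over all tested genes with a GC value, the median log2 difference went from −0.08 in the 1283 genes of lowest GC content (25.6 to 42.2%) to 0.25 in the 1283 of highest (57.9 to 75.5%). Skil (41.6%) lies in the lowest of 10 such bins and Tgfbr1 (43.5%) in the next, and both had negative differences. Smad7 (58.6%) lies in the highest and Tgfb1 (56.2%) in the one below, where the median was 0.17, and both had positive differences. The other 5 lie in the middle, where signs were mixed. Tgfb2 (47.6%) was lower in a bin with a median of −0.01, and Tgfbr2 (51.1%) was lower in a bin with a median of 0.06. Tgfb3 (53.0%), Tgfbi (53.0%) and Smad3 (53.7%) share a bin with a median of 0.075, and Tgfb3 and Smad3 were higher there and Tgfbi lower. After the GC trend of each library was taken out, an alternative chosen after seeing the data, Smad7 stood at 0.02, Tgfbr1 and Skil at −0.05 each, Tgfb2 at −0.09 and Tgfbi at −0.08. Under that setting Tgfb1 stood at 0.26 ± 0.08 (limma, adjusted p = 0.198), Smad3 at 0.20, Tgfb3 at 0.16 and Tgfbr2 at −0.24, and only Tgfb1 of the 9 kept groups without overlap, where 17.0% of all genes with a GC value lay above and 8.67% below.

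**Figure D3:**
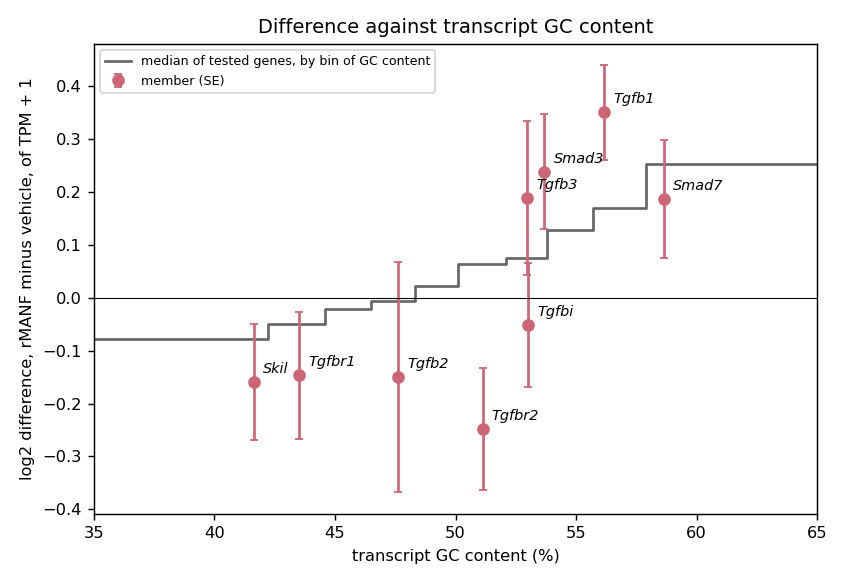
Log2 difference of TPM + 1, rMANF minus vehicle (y axis, bars are SE), against mean transcript GC content in percent (x axis) for the 9 genes, over a stepped line for the median difference of all tested genes in each of 10 bins of GC content. Tgfb1 lies above the line and Tgfbr2 below it, while Smad7 and Skil lie within 1 SE of it.

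The rest of the pathway was described from lists written down with earlier results of these data known. No member of any list passed limma's adjusted threshold of 0.05, in either direction, as held for 0% of all tested genes. Under the 3 other scalings the list medians kept their sign except for the wider family of ligands and antagonists, at −0.01 under median-of-ratios scaling. Of 17 tested genes of latency and activation, 6 had all rMANF values above all vehicle values and 2 had them below (18.9% and 9.02% of all tested genes), with a median log2 difference of 0.17. With the GC trend taken out, 4 were above and 3 below (17.0% and 8.67%). Furin, the protease that cleaves pro-TGF-beta, measured 28.3, 33.7 and 36.0 TPM under vehicle and 49.6, 48.6 and 44.7 TPM with rMANF, 0.54 ± 0.11 on the log2 scale (limma, adjusted p = 0.0893). Itgb5, an integrin subunit able to bind latent TGF-beta, measured 33.0 ± 1.99 and 41.0 ± 1.15 TPM (SD, n = 3 each), and Plau, the urokinase gene, 61.0 ± 3.05 and 48.5 ± 3.64 TPM. Itgb6 and Itgb8, whose integrins are the best known activators, stayed at or under 0.144 TPM in every library.

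Of 12 tested ligands and antagonists of the wider family, 3 had all rMANF values above and 3 below (18.9% and 9.02% of all tested genes). With the GC trend taken out, 1 was above and 3 below (17.0% and 8.67%). Lefty1, a secreted antagonist of Nodal, measured 11.5, 10.2 and 11.3 TPM under vehicle and 17.6, 16.9 and 15.4 TPM with rMANF (log2 difference 0.55 ± 0.10; limma, adjusted p = 0.0893), although Nodal itself was at most 0.130 TPM. The activin antagonist Fst measured 2.75 ± 0.507 and 1.25 ± 0.377 TPM (SD, n = 3 each). Grem1, a BMP antagonist, measured 2.90, 3.13 and 0.980 TPM under vehicle and 0.443, 0.684 and 0.326 TPM with rMANF, so that vehicle replicate 3 stood nearer to the rMANF libraries than to the other vehicle libraries.

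Of 12 tested receptors and co-receptors outside the 9, 10 lay higher, as did 57.3% of all tested genes, and the median was 0.14. The 3 without overlap, all above (18.9% of all tested genes), were the type II activin receptor gene Acvr2b (3.55 ± 0.740 and 5.69 ± 0.408 TPM), its type I partner Acvr1b (7.03 ± 0.660 and 9.55 ± 1.01 TPM) and Tgfbrap1, which encodes a receptor-associated protein (6.87 ± 0.502 and 8.25 ± 0.524 TPM). With the GC trend taken out, 4 of the 12 were above and 0 below (17.0% and 8.67% of all genes with a GC value), with a median of 0.18. Of the other SMAD genes 4 were tested. Smad4, the common partner, measured 45.0 ± 5.28 and 53.1 ± 2.56 TPM and Smad5, of the BMP branch, 28.5 ± 2.01 and 31.1 ± 0.897 TPM, both without overlap and above (18.9% of all tested genes). Smad2, which shares the receptor with Smad3, measured 28.2 ± 2.51 and 26.9 ± 1.26 TPM with overlap, and Smad6, the other inhibitory SMAD, was at most 0.332 TPM. With the GC trend taken out, 2 of the 4 tested SMAD genes were above and 0 below (17.0% and 8.67%).

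Of 19 tested SMAD regulators, 6 had all rMANF values above and 1 had them below (18.9% and 9.02% of all tested genes), with a median of 0.14. With the GC trend taken out, 9 were above and 1 below (17.0% and 8.67%). Ctdsp2 and Ctdsp1, phosphatases that act on SMADs, measured 55.8 ± 7.80 and 78.1 ± 2.77 TPM, and 54.7 ± 3.05 and 65.1 ± 3.30 TPM (SD, n = 3 each). Smurf1, a ubiquitin ligase that SMAD7 brings to the receptor, measured 27.8 ± 2.05 and 36.4 ± 3.89 TPM. The 1 gene below was Pmepa1, a TGF-beta-induced inhibitor of SMAD activation, at 2.81 ± 0.738 and 1.69 ± 0.220 TPM. Pmepa1 is named because of its value, as are Itgb6, Itgb8, Nodal and Smad6 above and Snai1, Tagln and Postn among the targets.

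Typical targets of the pathway did not lie on one side. Of 21 tested, 10 lay higher, as did 57.3% of all tested genes, and 11 lower, with a median of −0.04. These are counts of signs and no measure of pathway activity, since the list also holds Id2, which TGF-beta lowers. At an unadjusted limma p under 0.05, 2 of the 21 were higher and 6 lower (13.9% and 6.63% of all tested genes). All rMANF values were below all vehicle values for 4 of the 21, Col1a2, Id2, Tagln and Postn (9.02% of all tested genes), and above for 2, Junb and Snai1 (18.9%). The matrix markers Dcn, Lum and Mfap5 of the fibroblast list were likewise lower in every rMANF library. Dpt of the same list was higher in every rMANF library (43.1 to 59.4 TPM, against 38.2 to 42.7 TPM under vehicle). The other markers of that list with rows overlapped between groups. The part of fibroblasts in the target values was not tested. Col1a2, a chain of type I collagen, measured 54.8, 74.0 and 43.3 TPM under vehicle and 21.5, 41.0 and 27.8 TPM with rMANF (log2 difference −0.92 ± 0.26; limma, adjusted p = 0.125). The smooth muscle gene Tagln measured 14.0 ± 6.55 and 7.20 ± 1.62 TPM and Postn, a matrix gene of activated fibroblasts, 73.2 ± 15.3 and 45.0 ± 14.3 TPM. Id2, an inhibitor of differentiation that TGF-beta lowers and BMP raises, measured 32.4 ± 6.42 and 21.1 ± 4.13 TPM. On the other side Junb, an immediate SMAD target, measured 135 ± 4.78 and 161 ± 9.88 TPM, and Snai1, a driver of mesenchymal transition, 24.4 ± 3.22 and 32.9 ± 4.21 TPM. With the GC trend taken out, 19 of these targets had a GC value, and 3 had groups without overlap, all lower with rMANF (8.67% of all genes with a GC value), and 0 were above (17.0%). Of these 19 targets, 7 lay higher and 12 lower.

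**Figure D4:**
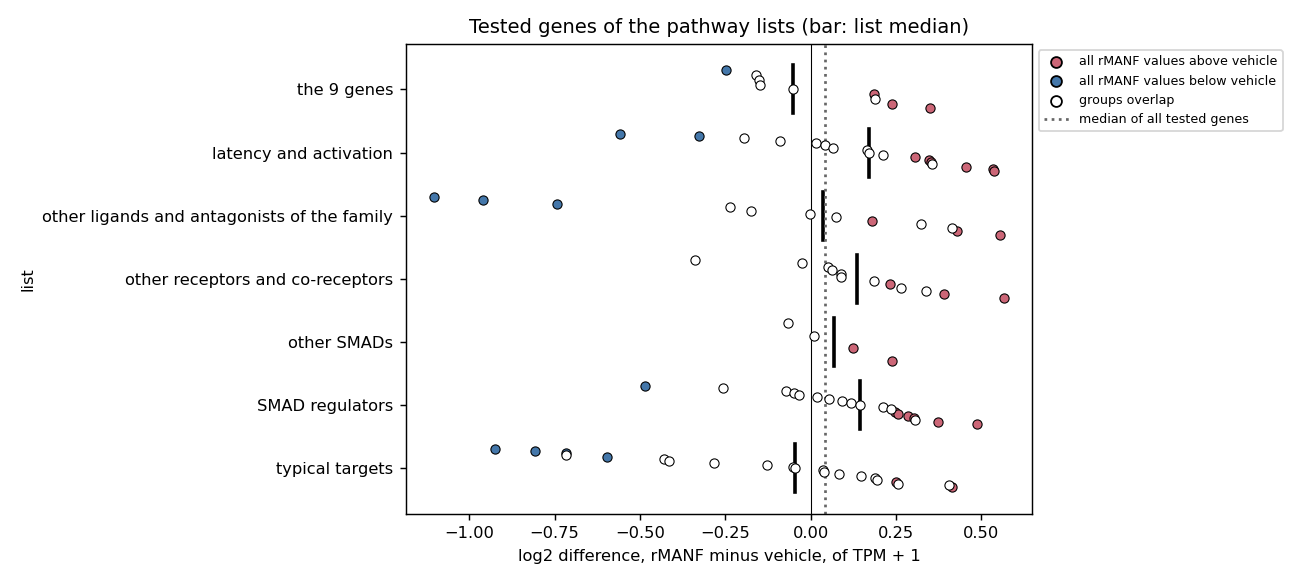
Log2 difference of TPM + 1, rMANF minus vehicle (x axis), of every tested gene in the 9-gene set and the 6 pathway lists (y axis), with the list median as a bar, the median of all tested genes as a dotted line, and red and blue for genes whose groups do not overlap. The medians run from −0.05 for the 9 genes to 0.17 for latency and activation.

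The genes with the most similar profiles to the 9 were found by the root mean square difference between mean-centred log2(TPM + 1) values over the 6 libraries. Arhgef19 (0.017) and Phc2 (0.021) were nearest to Tgfb1, Nr1h3 (0.027) and Pclaf (0.032) to Tgfbr2, Ganc (0.023) and Rbm7 (0.028) to Tgfbr1, and Atf7 (0.018) and Specc1l (0.021) to Smad3. Sun1 (0.022) and Arhgap33 (0.023) were nearest to Smad7, Ift20 and Tmem189 (both 0.017) to Skil, and Fuca1 and Lancl2 (both 0.040) to Tgfbi. For Tgfb2 they were Larp1b (0.048) and Parp14 (0.054), and for Tgfb3 Pyroxd2 (0.028) and Ammecr1l (0.034). For scale, the centred profiles themselves had root mean squares from 0.117 (Skil) to 0.214 (Tgfb2). None of the 18 is among the 9 genes or in the pathway lists.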

How the data were processed

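Whole-transcriptome libraries of 3 vehicle and 3 rMANF samples were compared. Per the labels' protocols, RNA came from a QIAzol extraction and the cDNA went into the Nextera XT kit, which keeps no strand information. Per the submitters' processing notes, the tools were Salmon 0.14.1, HTSeq 0.11.0, fastp and cutadapt, on build mm10. Which of them gave the final values, and with which annotation and filters, the sources used here do not say. Per gene, the authors deposited log2 TPM, where −9 was taken as 0 TPM. The values summed to the full TPM scale within 19.5 TPM in every library, and 0 columns belonged to other samples. TPM keeps no record of reads, so depth is unknown and precision is the spread between libraries. The labels call the samples biological replicates. The p-values set each group difference against the spread between them, which limma moderates across all tested genes.

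Differences were tested on log2(TPM + 1), a scale that shrinks differences of low genes, for genes averaging 1 TPM or more, with limma 3.58.1 in R 4.3.3 (no covariates, mean trend, two-sided, Benjamini-Hochberg over 12865 genes, threshold 0.05). The 9 genes and all lists were chosen with earlier results of these data known. The genes named are the 9 members, the 3 of smallest p in each pathway list, and the 2 nearest profiles per member (leaving out predicted models, Rik clones and pseudogenes); others are named for their values where stated. Other list members enter only through their list's counts, and 1 of them is not reported here. Cell type lists not described in the results are those of platelets, T cells, melanocytes and dividing cells. Platelet markers summed to 108 to 155 TPM with vehicle and 59.4 to 101 TPM with rMANF, but 5 of 7 were under 1 TPM throughout. T cell markers summed to 22.5 to 60.6 and 11.2 to 20.8 TPM, melanocyte markers (3 of 7 with rows) to 7.96 to 12.6 and 7.44 to 10.2 TPM, and dividing cell markers to 937 to 1052 and 916 to 964 TPM.

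Coordinates and transcript GC content are from GENCODE M21 (GRCm38, the assembly named mm10), with GC content for 99.7% of tested genes. Alternatives were 3 scalings (median of ratios, quantile, rescaling without mitochondrial and haemoglobin genes), 0.1 or 5 TPM as pseudocount, a filter at 5 TPM or none, variances without trend or robust, weighted libraries, a replicate block, leaving out 1 library at a time, a threshold of 0.10 and, chosen after seeing the data, subtraction of a loess fit on GC content (span 0.5), with and without the block. The fit was tested on simulated data for this comparison with 12865 genes: over 5 runs, 72.3% of 200 genes shifted by 1 log2 unit were recovered (3.08% of calls false), and 95.7% of 200 shifted by 2 (4.49% false).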

Additional observations from a re-analysis of the deposited data

How the results depend on the processing

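The 9 genes numbered 0 past limma's adjusted threshold of 0.05 under every alternative run. At 0.10, where the fit as reported has 0, Tgfb1 passed with library weights (adjusted p = 0.0778), without vehicle replicate 3 (0.0821) and with a filter at 5 TPM (0.0897); over its alternatives its adjusted p ran up to 0.310 and its difference from 0.25 to 0.43. Of 170 alternative values of the 9 differences, 166 kept sign and side of the threshold. The 4 that turned were Tgfb2 (0.08) and Tgfbi (0.06) with library weights, and Tgfbi without vehicle replicate 1 (0.03) or rMANF replicate 3 (0.05). The median of the 9 was 0.07 with a filter at 5 TPM, which leaves out Tgfb2, and 0.08 with library weights, and ran from −0.12 to 0.05 when 1 library was left out. Over all genes 0 passed; 737 did with library weights, 351 at 0.10, 14 with the GC trend removed and the replicate block together, and 0 to 18 when 1 library was left out (18 without vehicle replicate 1, 2 without rMANF replicate 1). The cause was not tested. Tgfb1 kept groups without overlap under all alternatives, Smad3 and Tgfbr2 under all but the GC-trend removals. Some alternatives separated further genes. Under median-of-ratios scaling Tgfbr1 and Skil joined Tgfbr2, making 3 of the 9 below (14.3% of all tested genes). Under quantile normalization Tgfbr1 joined it (12.4%).

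With the replicate number as a block, 3 genes passed over all genes and 0 of the 9. The numbers were not shown to pair the libraries: same-numbered libraries correlated at −0.069, 0.029 and 0.049 in their deviations from the group means.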
